A study of Mus musculus with 8 samples.

Results

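The genes described here are 51 genes of chromosomal DNA replication, chosen by name, among the 23284 genes counted in RNA of blood-forming stem and progenitor cells of mouse marrow. All 51 were in the count table, and all 51 passed the filter on low counts. The cells came from Hdc-GFP mice on a C57BL/6 background, in which green fluorescent protein (GFP) reports on Hdc, the gene of the histamine-making enzyme histidine decarboxylase. From their bone marrow, LSK cells, which lack lineage markers and carry Sca-1 and c-Kit, were sorted by GFP into an Hdc-GFPhi fraction (4 libraries) and an Hdc-GFPlo fraction (4 libraries), each library from 2000 cells. All 8 libraries thus carry the same reporter and were separated by its brightness, no treatment is named, and the sources used here give neither age nor sex, nor whether marrow was pooled. Hdc-GFPhi replicate 4 has GFP+ in its cell type label where the others of its fraction have GFPhi, and it was kept with its titled fraction.

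DNA replication starts when the origin recognition complex (ORC) binds chromatin and, with Cdc6 and Cdt1, loads the ring-shaped MCM helicase. Cdc45 and the GINS complex then turn the loaded ring into a moving helicase, primase and the replicative polymerases copy both strands, and the sliding clamp PCNA, placed by the clamp loader RFC, holds the polymerases on DNA. Many of these genes are transcribed in late G1 under E2F factors, so their summed RNA is often read as a sign of cycling cells. Adult stem cells of the marrow are mostly quiescent, while the multipotent progenitors that make up most of the LSK gate divide more often.

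Of the 51 genes, 43 had an entry in the RefSeq promoter table (GRCm38.p6). The table's window for each start was searched over the 250 bases before it for the E2F-type words TTTCCCGC, TTTCGCGC, TTTGCCGC and TTTGGCGC on both strands. A word was present for 9 of 43 replication genes (20.9%), against 3.88% of the 9421 tested genes with an entry and 2.16% of all 27025 symbols in the table. The shorter word CCAAT was present for 25 of 43 (58.1%), against 40.5% of the tested genes. The windows of 4 genes are shown, because Mcm6 had the highest level per length and holds E2F-type words, Cdc6 is a licensing factor that holds 1, and Rrm2 and Ccne1, which had the smallest p-values between the fractions, hold no E2F-type word. Each is printed 5′ to 3′ on the gene's strand, with the E2F-type words in capitals and CCAAT left in lower case.
Mcm6, chr1:128359706-128359955, minus strand: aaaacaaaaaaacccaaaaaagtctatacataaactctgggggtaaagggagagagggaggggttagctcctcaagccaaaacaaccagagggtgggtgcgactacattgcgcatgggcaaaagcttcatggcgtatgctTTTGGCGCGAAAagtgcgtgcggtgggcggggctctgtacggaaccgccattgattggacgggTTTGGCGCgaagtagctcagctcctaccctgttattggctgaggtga
Cdc6, chr11:98907901-98908150, plus strand: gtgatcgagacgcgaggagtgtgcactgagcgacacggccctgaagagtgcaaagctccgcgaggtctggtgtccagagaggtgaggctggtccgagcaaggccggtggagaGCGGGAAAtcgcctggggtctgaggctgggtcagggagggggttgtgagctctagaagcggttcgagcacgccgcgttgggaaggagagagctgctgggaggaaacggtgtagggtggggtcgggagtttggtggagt
Rrm2, chr12:24708004-24708253, plus strand: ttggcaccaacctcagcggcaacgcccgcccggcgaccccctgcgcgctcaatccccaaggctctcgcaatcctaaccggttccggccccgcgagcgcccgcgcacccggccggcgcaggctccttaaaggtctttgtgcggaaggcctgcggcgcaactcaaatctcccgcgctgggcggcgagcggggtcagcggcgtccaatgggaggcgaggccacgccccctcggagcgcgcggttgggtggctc
Ccne1, chr7:38107491-38107740, minus strand: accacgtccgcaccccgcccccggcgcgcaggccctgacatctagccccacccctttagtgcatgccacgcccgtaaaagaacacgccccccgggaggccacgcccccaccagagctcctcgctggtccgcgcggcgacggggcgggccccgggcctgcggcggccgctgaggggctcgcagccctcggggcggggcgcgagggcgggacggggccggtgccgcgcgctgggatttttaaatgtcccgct
In Mcm6 the E2F-type words begin 110, 106 and 47 bases before the start, and the first pair, on opposite strands, overlap. In Cdc6 the word begins 138 bases before the start. The bases after this Mcm6 start were not found in a GENCODE transcript of the gene, so the start itself is uncertain. The same holds for Mcm5, another of the 9 genes with an E2F-type word. The 43 genes had 52 windows, and for 42 of these the bases after the start were found. A gene with several windows counted as holding a word if any of them did. A word is a match of letters in a window and no more.

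The libraries held 21041170 to 22470121 counts in Hdc-GFPhi and 16726179 to 23051277 counts in Hdc-GFPlo. The lowest count of any replication gene in any library was 147 and the highest 29182, and the biological coefficient of variation over all tested genes was 19.9%. The transcripts of the sorted surface proteins were present in every library. Kit, which encodes c-Kit, stood at 1299 to 1537 CPM (counts scaled to a common library size with TMM factors) in Hdc-GFPhi and 748 to 1470 CPM in Hdc-GFPlo, with Hdc-GFPlo replicate 3 lowest. Ly6a, which encodes Sca-1, stood at 102 to 144 CPM in Hdc-GFPhi, against 96.4 to 135 CPM in Hdc-GFPlo. RNA of Hdc, the gene the reporter stands for, was 13.1, 10.5, 14.5 and 10.1 CPM in Hdc-GFPhi, against 12.8, 13.4, 11.3 and 10.9 CPM in Hdc-GFPlo. These overlapped, so the Hdc transcript did not separate the fractions as GFP did (log2 fold change -0.0075 ± 0.18, SE, adjusted p = 0.995 by edgeR). The globin genes Hba-a1, Hba-a2 and Hbb-b2 and the T cell gene Cd8a had no count in any library. Exons of 16 replication genes overlap a gene on the opposite strand in GENCODE M21, among them Orc4, Orc6, Mcm7, Pole, Fen1, Lig1, Tk1 and Ccne2. The strand setting of the counting is not stated. Reads of the neighbour may therefore be among their counts, or their own reads in the overlap may be left out.

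None of the 51 DNA replication genes was called, that is, had an adjusted p under 0.05, between Hdc-GFPhi and Hdc-GFPlo cells. Together they took 9426 ± 856 CPM in Hdc-GFPhi, against 9238 ± 800 CPM in Hdc-GFPlo (SD over 4 libraries each), a difference smaller than the spread within either fraction. By edgeR's quasi-likelihood test with Benjamini-Hochberg adjustment over 13300 genes, 0 of 51 had an adjusted p under 0.05, where the share called among all tested genes was 0.947% (0.241% higher and 0.707% lower in Hdc-GFPhi). At an unadjusted p under 0.05 there were 3 of 51 (5.88%), against 10.9% of all tested genes. DESeq2 and limma voom also called 0 of 51, with 3 and 4 at an unadjusted p under 0.05, and DESeq2 called 3.04% of all genes. For no replication gene were the libraries of the fractions apart without overlap, against 6.92% of all tested genes. RNA in sorted bulk cells cannot tell fewer cycling cells from less transcript in each.

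The log2 fold changes, Hdc-GFPhi over Hdc-GFPlo, had a median of 0.016 over the 51 genes, with 28 above and 23 below 0, against a median of -0.00045 over all tested genes. With 1 library left out, the median of the 51 was lowest at -0.024, without Hdc-GFPlo replicate 2, and highest at 0.087, which was without replicate 3 of that fraction. The estimates ranged from -0.47 for Ccne1 to 0.40 for Pole. For all 51 genes the 95% interval of the difference lay within 2-fold in either direction and for 39 within 1.5-fold. The estimate lay within 0.25 of 0 for 42 of 51 genes (82.4%), against 82.5% of the 9588 tested genes in the same range of level. No interval reached a 2-fold difference, and smaller differences were not detectable for many of these genes at this spread and number of libraries.

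**Figure D1:**
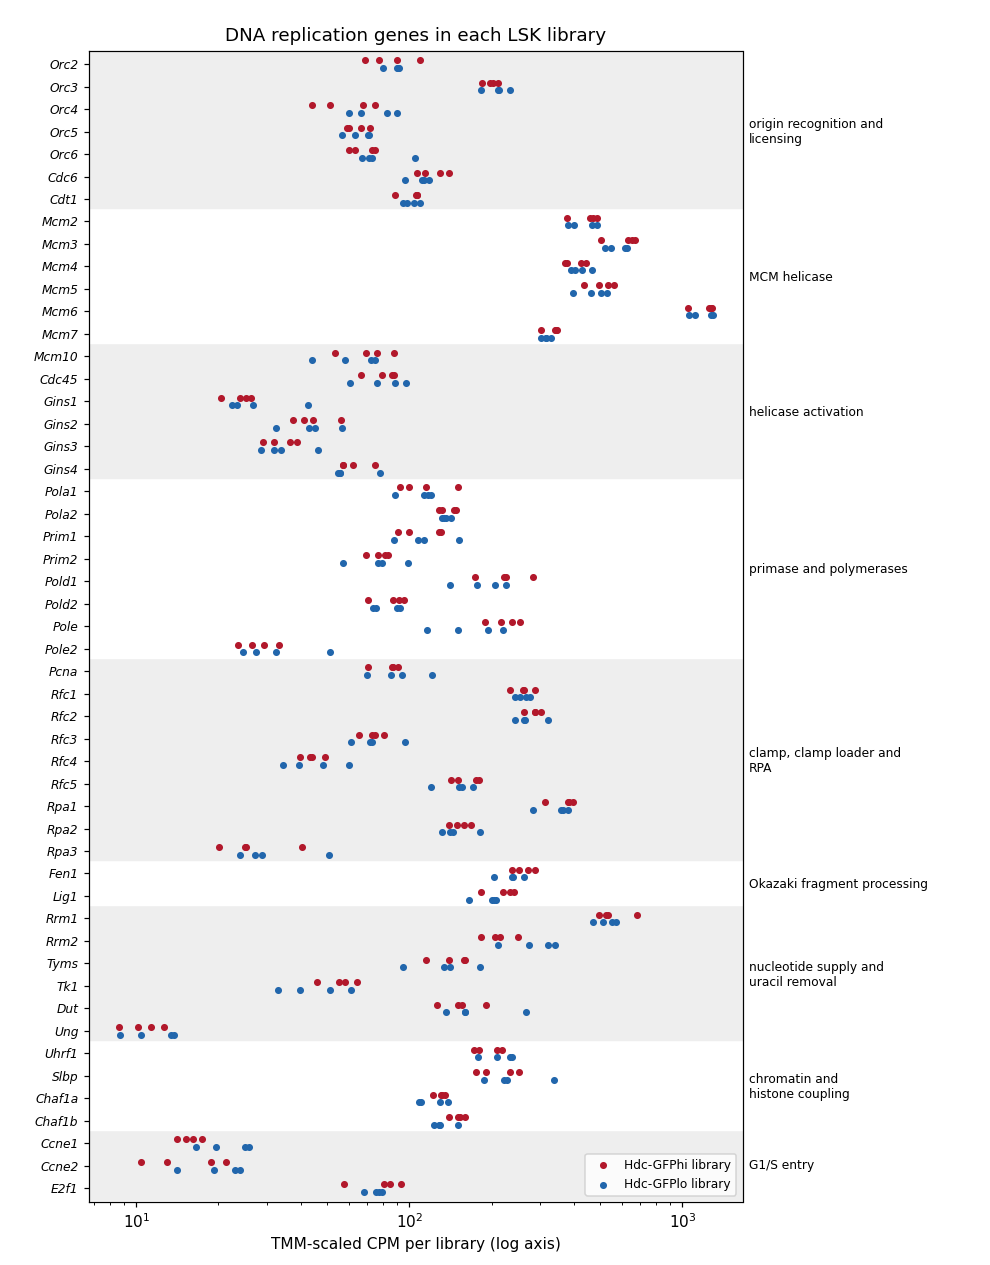
TMM-scaled CPM (log axis) of the 51 DNA replication genes by role, with 1 point per library, Hdc-GFPhi in red above and Hdc-GFPlo in blue below in each row. The points of the fractions overlap in every row, with Ung, Ccne1 and Ccne2 at the low end and Mcm6 at the high end.

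**Figure D2:**
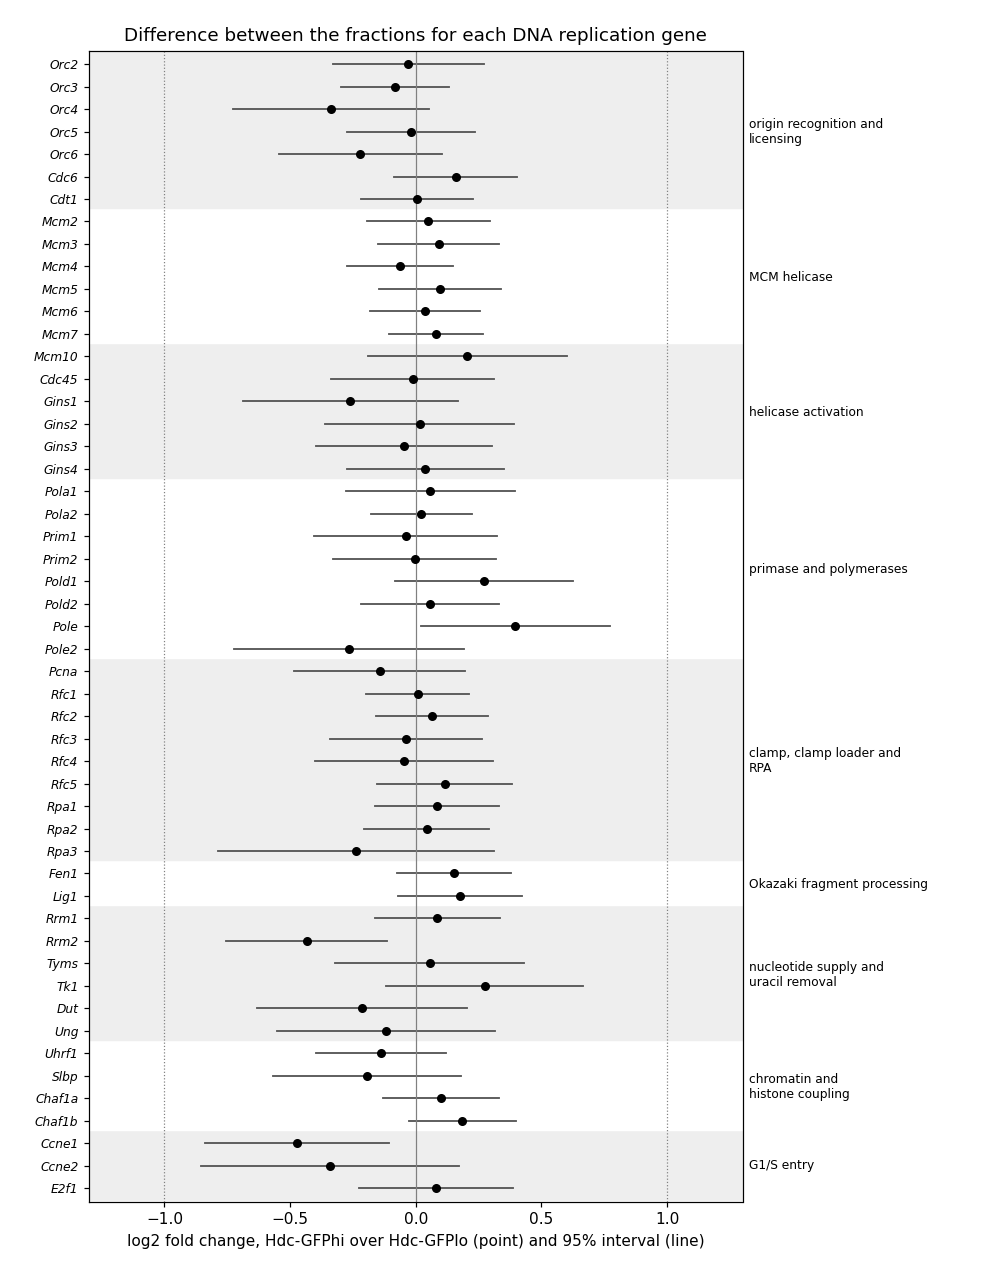
Log2 fold change of each DNA replication gene, Hdc-GFPhi over Hdc-GFPlo (point), with its 95% interval (line) from edgeR's quasi-likelihood fit, by role; dotted lines mark a 2-fold difference. All 51 intervals lie between the dotted lines, and those of Pole, Rrm2 and Ccne1 leave out 0 before adjustment.

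Origin recognition and licensing genes were split, with 2 of 7 estimates above 0 and a median log2 fold change of -0.029. Orc4, an ATPase subunit of ORC, had 43.9, 51.4, 74.6 and 67.7 CPM in Hdc-GFPhi, against 66.6, 60.3, 90.2 and 83.0 CPM in Hdc-GFPlo. Its fractions overlapped, and the log2 fold change was -0.34 ± 0.18 (SE, adjusted p = 0.555 by edgeR). Orc6, the smallest ORC subunit, had 63.3, 59.9, 74.6 and 73.2 CPM in Hdc-GFPhi, against 73.0, 67.0, 105 and 71.2 CPM in Hdc-GFPlo, where replicate 3 stood apart (adjusted p = 0.684). Cdc6 averaged 122 ± 15.0 CPM in Hdc-GFPhi, against 109.7 ± 9.40 CPM in Hdc-GFPlo (SD over 4 libraries each). Its partner Cdt1 averaged 102 ± 8.72 CPM in Hdc-GFPhi, against 102 ± 6.56 CPM in Hdc-GFPlo. Orc2, Orc3 and Orc5, further ORC subunits, had estimates between -0.082 and -0.018.

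The MCM helicase genes had the highest summed level of the 9 roles. Their summed level was 3521 ± 329 CPM in Hdc-GFPhi, against 3405 ± 304 CPM in Hdc-GFPlo (SD over 4 libraries each), and the 6 log2 fold changes lay between -0.063 and 0.096. Mcm6 had 1286, 1051, 1269 and 1246 CPM in Hdc-GFPhi, against 1291, 1059, 1110 and 1270 CPM in Hdc-GFPlo. Replicate 2 was lowest in both fractions, and the difference was 0.036 ± 0.10 on the log2 scale (SE, adjusted p = 0.942, by edgeR). Its direction turned with voom and without Hdc-GFPlo replicate 2. Mcm5 had 533, 437, 560 and 495 CPM in Hdc-GFPhi, against 502, 399, 463 and 531 CPM in Hdc-GFPlo (adjusted p = 0.843). Mcm7 had 342, 304, 346 and 344 CPM in Hdc-GFPhi, against 316, 302, 317 and 330 CPM in Hdc-GFPlo (adjusted p = 0.832). The 95% interval of the Mcm7 difference ran from -0.11 to 0.27 on the log2 scale. Mcm2, Mcm3 and Mcm4, the other subunits of the ring, averaged 449, 615 and 404 CPM in Hdc-GFPhi, against 433, 577 and 422 CPM in Hdc-GFPlo.

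Helicase activation genes had 3 of 6 estimates above 0. Mcm10, which helps the loaded helicase to open DNA, had 69.6, 53.6, 87.8 and 76.1 CPM in Hdc-GFPhi, against 74.6, 44.0, 58.3 and 72.1 CPM in Hdc-GFPlo (log2 fold change 0.20 ± 0.18, SE, adjusted p = 0.782 by edgeR). Gins1, a GINS subunit, had 23.9, 20.4, 25.2 and 26.4 CPM in Hdc-GFPhi, against 23.4, 22.4, 42.5 and 26.7 CPM in Hdc-GFPlo. Its estimate of -0.26 (adjusted p = 0.727) was 0.0041 without Hdc-GFPlo replicate 3, the highest of its libraries. Cdc45, the helicase cofactor, averaged 79.9 ± 9.80 CPM in Hdc-GFPhi, against 80.5 ± 15.7 CPM in Hdc-GFPlo (SD over 4 libraries each). Gins2, Gins3 and Gins4 had estimates between -0.047 and 0.038.

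Among primase and polymerase genes, 5 of 8 estimates were above 0, with Pole and Pold1 highest. Pole, the catalytic subunit of the leading-strand polymerase, had 237, 189, 255 and 216 CPM in Hdc-GFPhi, against 194, 151, 116 and 220 CPM in Hdc-GFPlo. The fractions overlapped, since Hdc-GFPlo replicate 4 lay above Hdc-GFPhi replicates 2 and 4 and Hdc-GFPlo replicate 1 above Hdc-GFPhi replicate 2, and the log2 fold change was 0.40 ± 0.17 (SE, adjusted p = 0.419 by edgeR). Without Hdc-GFPlo replicate 3 it was 0.27. Pold1, the catalytic subunit of the lagging-strand polymerase, had 225, 174, 222 and 284 CPM in Hdc-GFPhi, against 206, 176, 141 and 226 CPM in Hdc-GFPlo. Its estimate was 0.27 (adjusted p = 0.622), and 0.17 without Hdc-GFPlo replicate 3. Pole2, the second subunit of the Pole enzyme, lay the other way, at 28.2 ± 4.11 CPM in Hdc-GFPhi, against 33.9 ± 11.95 CPM in Hdc-GFPlo (SD over 4 libraries each). The genes Pola1, Pola2, Prim1 and Prim2 encode polymerase alpha and primase, which lay down the first primer. They averaged, in that order, 114, 138, 112 and 77.8 CPM in Hdc-GFPhi, against 109.8, 136, 115 and 78.1 CPM in Hdc-GFPlo.

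Clamp, clamp loader and RPA genes had 5 of 9 estimates above 0 and a median of 0.0077 on the log2 scale. Pcna, the sliding clamp, had 86.4, 70.8, 87.3 and 91.1 CPM in Hdc-GFPhi, against 94.3, 69.8, 121 and 85.4 CPM in Hdc-GFPlo (log2 fold change -0.14 ± 0.16, SE, adjusted p = 0.830 by edgeR). Rpa3, the smallest subunit of the single-strand binding complex RPA, had 25.0, 20.1, 25.3 and 40.3 CPM in Hdc-GFPhi, against 27.2, 23.9, 50.7 and 28.9 CPM in Hdc-GFPlo (adjusted p = 0.827). For Rpa3, 1 library of each fraction lay well above the rest, and without Hdc-GFPlo replicate 3 the estimates of Pcna and Rpa3 turned to 0.027 and 0.068. The 5 clamp loader subunits Rfc1 to Rfc5 had estimates between -0.048 and 0.11. Fen1, the flap nuclease, and Lig1, the ligase that joins Okazaki fragments, both had estimates above 0. Fen1 had 288, 237, 272 and 252 CPM in Hdc-GFPhi, against 240, 204, 263 and 237 CPM in Hdc-GFPlo (log2 fold change 0.15, adjusted p = 0.690). Lig1 had 221, 183, 234 and 241 CPM in Hdc-GFPhi, against 200, 165, 205 and 207 CPM in Hdc-GFPlo (log2 fold change 0.18, adjusted p = 0.657).

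Nucleotide supply genes held the smallest p-value among the 51. Rrm2, the small subunit of ribonucleotide reductase, whose level varies through the cell cycle, had 215, 182, 250 and 205 CPM in Hdc-GFPhi, against 342, 212, 323 and 275 CPM in Hdc-GFPlo. Hdc-GFPlo replicate 2 fell inside the range of Hdc-GFPhi, and the other Hdc-GFPlo libraries lay above it. The log2 fold change was -0.43 ± 0.15 (SE, 95% interval -0.75 to -0.11, unadjusted p = 0.0120, adjusted p = 0.254 by edgeR). Over 20 alternative fits the adjusted p of Rrm2 ranged from 0.0733 to 0.608. Rrm1, the large subunit of the same enzyme, averaged 559 ± 84.3 CPM in Hdc-GFPhi, against 527 ± 44.9 CPM in Hdc-GFPlo (SD over 4 libraries each), so the estimates of the subunits had opposite signs. The difference between the subunits' fold changes was not tested. Tk1, the thymidine kinase of S phase, had 55.2, 46.1, 57.9 and 64.5 CPM in Hdc-GFPhi, against 39.8, 32.9, 61.3 and 51.1 CPM in Hdc-GFPlo (adjusted p = 0.670). Tyms, which makes thymidylate, and Dut, which removes dUTP, averaged 143 and 156 CPM in Hdc-GFPhi, against 138 and 181 CPM in Hdc-GFPlo. Ung, which cuts uracil out of DNA, was the scarcest gene per length, with 12.6, 8.63, 10.2 and 11.3 CPM in Hdc-GFPhi, against 13.4, 8.73, 13.7 and 10.4 CPM in Hdc-GFPlo (adjusted p = 0.902).

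Chromatin genes linked to replication had 2 of 4 estimates on each side of 0. Chaf1b, a subunit of the histone chaperone CAF-1, had 160, 154, 140 and 150 CPM in Hdc-GFPhi, against 129, 123, 150 and 129 CPM in Hdc-GFPlo. Hdc-GFPlo replicate 3 was the overlap, and the log2 fold change was 0.18 ± 0.10 (SE, adjusted p = 0.555 by edgeR). Uhrf1, which brings the maintenance DNA methyltransferase to new DNA, had 180, 172, 219 and 210 CPM in Hdc-GFPhi, against 238, 179, 209 and 234 CPM in Hdc-GFPlo (adjusted p = 0.769). Slbp, which binds the end of histone mRNAs, averaged 213 ± 35.7 CPM in Hdc-GFPhi, against 244 ± 65.1 CPM in Hdc-GFPlo, and the CAF-1 subunit Chaf1a averaged 130 ± 5.76 CPM in Hdc-GFPhi, against 121 ± 14.7 CPM in Hdc-GFPlo (SD over 4 libraries each).

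The E-type cyclins, which drive Cdk2 at the entry to S phase, were among the scarcest genes. Ccne1 had 15.2, 14.0, 17.4 and 16.1 CPM in Hdc-GFPhi, against 25.0, 19.7, 25.8 and 16.6 CPM in Hdc-GFPlo. Hdc-GFPlo replicate 4 was the overlap. The log2 fold change was -0.47 ± 0.17 (SE, 95% interval -0.84 to -0.11, unadjusted p = 0.0157, adjusted p = 0.283 by edgeR). Ccne2 had 12.9, 10.5, 21.4 and 18.7 CPM in Hdc-GFPhi, against 23.9, 14.1, 23.0 and 19.2 CPM in Hdc-GFPlo, a wide overlap (adjusted p = 0.696). E2f1, a transcriptional activator of many of the genes above, averaged 79.2 ± 15.3 CPM in Hdc-GFPhi, against 75 ± 4.90 CPM in Hdc-GFPlo (SD over 4 libraries each).

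Levels between genes were compared as CPM per kb of the longest coding transcript (GENCODE M21), a scale that reads low for a gene whose shorter isoform is the one in use. On this scale the replication genes spanned 52.8-fold over all 8 libraries. Mcm6 stood first, at 279 CPM per kb in Hdc-GFPhi and 272 in Hdc-GFPlo, then Mcm3 at 203 and 190, Mcm5 at 150 and 140, and Rrm1 at 140 and 132. Mcm5 and Rrm1 lay within their spread of each other. Ung stood last at 5.0 CPM per kb in Hdc-GFPhi and 5.43 in Hdc-GFPlo, next to Ccne2 at 5.28 and 6.68 and Ccne1 at 7.84 and 10.9. Genes whose proteins work in fixed complexes stood at different levels. From the lowest to the highest subunit in Hdc-GFPhi, MCM genes ran from 113 to 279 CPM per kb, clamp loader genes from 34.5 to 57.9, GINS genes from 11.47 to 46.6 and the ORC genes Orc2 to Orc6 from 14.6 to 86.5. The Hdc-GFPlo ranges were 107 to 272 for MCM, 35.7 to 57.3 for the clamp loader, 11.3 to 45.4 for GINS and 18.5 to 91.5 for Orc2 to Orc6. Orc1, the remaining ORC subunit and not among the 51, lay lower, at 7.92 CPM per kb in Hdc-GFPhi and 9.26 in Hdc-GFPlo.

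Within each fraction the replication genes moved together by library. Replicate 2 was the lowest of the 4 Hdc-GFPhi libraries for 43 of 51 genes (84.3%, against 26.1% of all tested genes). It was also the lowest of the 4 Hdc-GFPlo libraries for 39 of 51 (76.5%, against 25.6% of all tested genes). For 35 of 51 genes it was the lowest in both fractions (68.6%, against 11.8% of all tested genes). This held for all 6 nucleotide supply genes, for Fen1 and Lig1, and for 5 of 6 helicase activation genes. The genes' median offset from their fraction mean was -0.21 on the log2 scale in both replicate 2 libraries, where all tested genes had medians of -0.0035 in Hdc-GFPhi and 0.0022 in Hdc-GFPlo. The summed replication level in Hdc-GFPhi was 8192 CPM in replicate 2 and 9571 to 10145 CPM in the other libraries, and in Hdc-GFPlo it was 8042 CPM in replicate 2 and 9541 to 9686 CPM in the others. Mitosis genes stood lowest in the same libraries, for 21 of 28 genes in Hdc-GFPhi and 25 of 28 in Hdc-GFPlo. Replicate 2 also had the fewest counts of each fraction, 21041170 in Hdc-GFPhi and 16726179 in Hdc-GFPlo. Any part of depth or of the cell mixture in this pattern was not tested. The labels do not say whether a shared number marks a shared animal, sort or day. Without replicate 2 of both fractions, an alternative chosen after seeing the data, 0 of 51 genes were called and the median log2 fold change was 0.033.

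**Figure D3:**
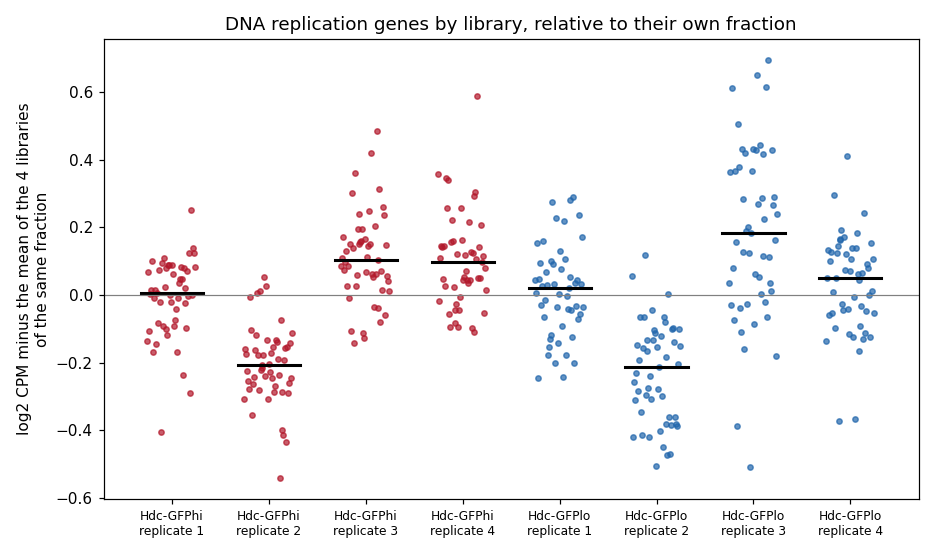
Log2 CPM of the 51 DNA replication genes in each library minus their mean over the 4 libraries of the same fraction (points), with the median of the 51 as a black bar, Hdc-GFPhi libraries left of Hdc-GFPlo libraries. The replicate 2 libraries of both fractions have medians of -0.21, and Hdc-GFPlo replicate 3 has the widest scatter and a median of 0.18.

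Hdc-GFPlo replicate 3 departed in another way, with the genes of short transcripts high and those of longer ones, at the median, close to the fraction mean. It was the highest Hdc-GFPlo library for 29 of 51 genes (56.9%, against 35.2% of all tested genes), yet the lowest for Pole, Pold1, Mcm2, Mcm4 and Chaf1a. The 26 genes with transcripts of up to 2519 bases had a median offset of 0.37 on the log2 scale in that library, and the 25 longer ones had 0.013. Across the 51 genes, which share the library and are not independent, the offset and log2 length had a Pearson r of -0.74 in Hdc-GFPlo replicate 3, and across 11987 tested genes r was -0.40. In Hdc-GFPlo replicates 1 and 4 it ran the other way over the 51 genes, at 0.57 and 0.60, and in Hdc-GFPhi it was weaker, from -0.36 in replicate 4 to 0.38 in replicate 3. GC content moved with the offset too, at r = 0.65 over the 51 genes in Hdc-GFPhi replicate 1 and -0.44 in Hdc-GFPhi replicate 3. After removal of the trend of each library with length and GC, 0 of 51 genes were called, and the estimates lay between -0.46 and 0.35. Without Hdc-GFPlo replicate 3, 0 of 51 were called and the range was -0.37 to 0.45.

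**Figure D4:**
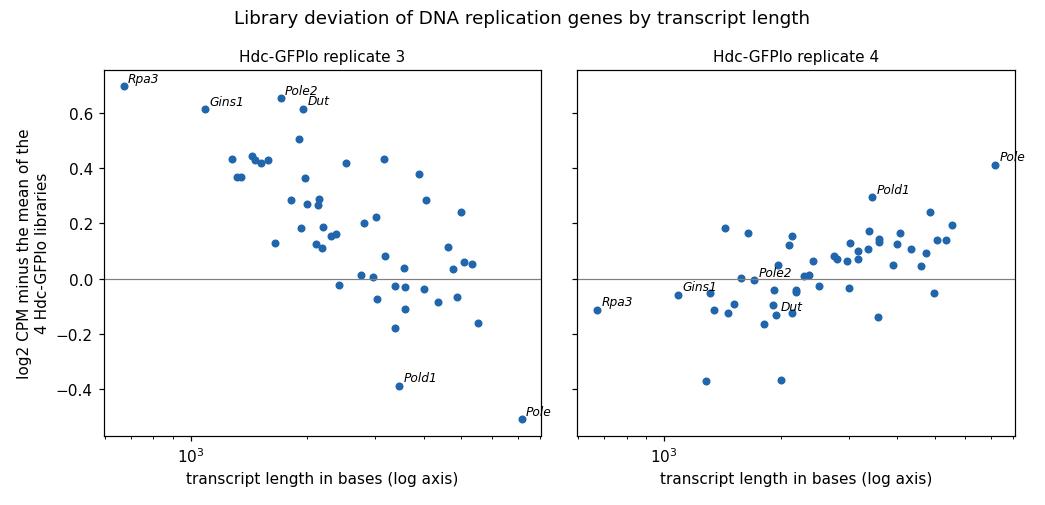
Log2 CPM of the 51 DNA replication genes minus their mean over the 4 Hdc-GFPlo libraries, against transcript length in bases (log axis), in Hdc-GFPlo replicates 3 and 4. In replicate 3 the points slope down (r = -0.74) from Rpa3 to Pole, and in replicate 4 they slope up (r = 0.60).

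Other genes of the same pathway, 58 of them in the table, were tested in the same fit. None was called by edgeR, with 3 at an unadjusted p under 0.05, 33 estimates above and 25 below 0, and a median log2 fold change of 0.044. Mcmbp, which unloads the MCM ring, had 196, 183, 208 and 173 CPM in Hdc-GFPhi, against 246, 216, 219 and 237 CPM in Hdc-GFPlo, with no overlap (log2 fold change -0.27 ± 0.10, SE, adjusted p = 0.269). E2f7, a repressor of E2F targets, had 32.5, 31.9, 40.2 and 36.1 CPM in Hdc-GFPhi, against 30.9, 17.7, 19.7 and 29.9 CPM in Hdc-GFPlo, also with no overlap (0.52 ± 0.19, adjusted p = 0.283). These were the only genes of the 58 without overlap, 1 higher and 1 lower, against 6.92% of all tested genes. Neither gene passed the adjusted threshold. Dck, which salvages deoxycytidine, had 62.8, 68.0, 102 and 82.0 CPM in Hdc-GFPhi, against 127, 93.3, 99.9 and 100.5 CPM in Hdc-GFPlo (log2 fold change -0.42, adjusted p = 0.315). The nuclease Exo1 had 73.6, 52.5, 79.2 and 70.7 CPM in Hdc-GFPhi, against 55.7, 45.7, 58.3 and 67.0 CPM in Hdc-GFPlo (log2 fold change 0.28, adjusted p = 0.555). Both of these overlapped between the fractions. Of 28 mitosis genes none was called, 2 had an unadjusted p under 0.05, and 22 estimates were above 0, with a median of 0.11. Of 27 quiescence genes, Cdkn1c, which encodes the inhibitor p57 of G1 cyclin kinases, rose by 0.85 on the log2 scale (adjusted p = 0.0188). Its level was 22.9, 20.6, 18.5 and 25.0 CPM in Hdc-GFPhi, against 11.2, 11.3, 13.2 and 12.5 CPM in Hdc-GFPlo. With any of Hdc-GFPhi replicates 1 and 4 and Hdc-GFPlo replicates 1, 2 and 4 left out, its adjusted p lay between 0.0512 and 0.0880, and it was 0.0904 without replicate 2 of both fractions. The other 26 genes of this list were not called, so the share called was 3.7%, against 0.947% of all tested genes. Besides inhibitors it holds the cyclins Ccnd1, Ccnd2 and Ccnd3 and the kinases Cdk4 and Cdk6. Its median of -0.018 therefore mixes genes of opposed function. Of the 27, 5 had an unadjusted p under 0.05 by edgeR, where 10.9% of all tested genes did. Cdkn1c was higher in Hdc-GFPhi, and the estimates of Foxo1, Ccnd1, Ccnd3 and Cdk6, none of them called, were lower.

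Listed markers of cell identity did differ between the same libraries. These lists were chosen with earlier results of these data known, so their counts are a description and no independent support. Of 18 lymphoid progenitor markers, 15 were called lower in Hdc-GFPhi (83.3%, against 0.707% of all tested genes). The summed level of all 18 was 1393 to 1833 CPM in Hdc-GFPhi, against 2990 to 4150 CPM in Hdc-GFPlo. The summed level of 16 stem cell markers was 2879 to 3390 CPM in Hdc-GFPhi, against 2051 to 2458 CPM in Hdc-GFPlo. Of 14 myeloid progenitor markers, 3 were called lower in Hdc-GFPhi (21.4%, against the same 0.707%). The summed level of all 14 was 962 to 1315 CPM in Hdc-GFPhi, against 1137 to 1429 CPM in Hdc-GFPlo. Of the markers of other cells, 9 of 13 erythroid, 7 of 8 megakaryocyte, 3 of 10 T and NK cell, 3 of 8 mast cell and basophil and 5 of 8 stromal and endothelial genes passed the filter, and none was called. The megakaryocyte genes nevertheless leaned 1 way. All 7 estimates were above 0, with a median log2 fold change of 0.43. Of the 7, 3 had an unadjusted p under 0.05 by edgeR, where 10.9% of all tested genes did. The part of these cell types in the levels of replication genes was not tested. The summed replication level, at 8192 to 10145 CPM in Hdc-GFPhi, against 8042 to 9686 CPM in Hdc-GFPlo, overlapped across the fractions while the lymphoid and stem cell sums did not.

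**Figure D5:**
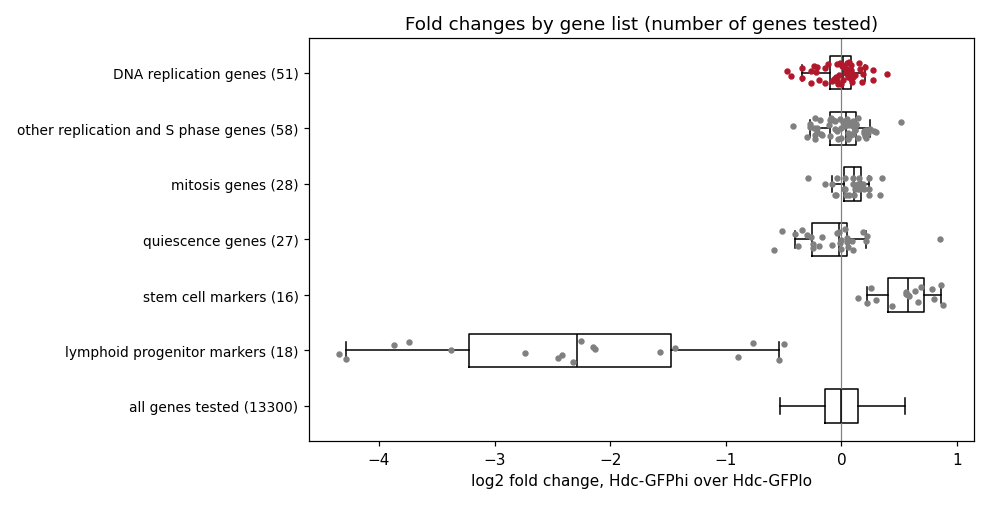
Log2 fold changes, Hdc-GFPhi over Hdc-GFPlo, of DNA replication genes (red) and of other gene lists (grey), with 1 point per gene of a list and none for all genes; boxes show the median and quartiles, and whiskers the 5th and 95th percentiles. DNA replication genes have a median of 0.016 and all genes tested of -0.00045, while stem cell markers have a median of 0.58 and lymphoid progenitor markers of -2.29.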

How the data were processed

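The authors deposited 1 table for the 8 libraries, with a whole, unnormalized read count for each gene symbol. Per the labels' protocols, each library came from 2000 sorted cells, with SMARTer amplification of cDNA and Nextera XT tagging. Tools named in the submitters' processing notes are HTSeq 0.6.1, TopHat2 (version written as 2.04), Bowtie2 and bcl2fastq 1.8.4, and the build is mm9. The sources used here give neither the role of each tool nor the annotation, the strand setting or the treatment of multiply mapped reads. In GENCODE M21 (GRCm38), exons of 19 of the 51 genes overlap those of another gene, 16 of them on the opposite strand. Tyms has a pseudogene row of its own.

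Columns were matched to samples by the labels' library codes, and groups and replicate numbers came from titles. No label says that replicates are separate animals, so a p-value reflects only how far these libraries scatter, and that scatter may be technical. Every pair of libraries within a fraction differed by more than sampling noise (chi-square per degree of freedom at least 13.8).

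Genes were filtered with edgeR's filterByExpr (13300 of 23284 kept) and scaled by TMM. The test was edgeR 4.0.16 quasi-likelihood (robust) of Hdc-GFPhi against Hdc-GFPlo, no covariate, in R 4.3.3, adjusted over all tested genes at 0.05. It was also run on simulated counts drawn independently for each gene, whereas the replication genes here moved together by library. No result rests on that run. A gene is called when it passed. Alternatives used DESeq2 1.42.0, limma 3.58.1 voom, other scalings and filters, covariates and left-out libraries. The members and lists were chosen with earlier results of these data known. Values per library are given for the 2 smallest p in each role and for the extremes of level per length, and for the 4 smallest p of the other pathway genes. Ticrr was not found in the table. Amplified reads carry no molecular identifiers. GFP reads are not analysed here. Calls of single stem cell markers are not reported here.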

Additional observations from a re-analysis of the deposited data

Results flagged for a closer look

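Of 104 groups of 4 libraries examined (each replication gene and their sum, in each fraction), 7 had 1 library far from the other 3. Chance gives about 1 in 20, so 7 of 104 is close to that rate. The groups share libraries and are not independent, and the items below are a description only. In Hdc-GFPhi, replicate 2 stood low for Cdt1 (88.9 CPM, others 105 to 107), Mcm6 (1051 CPM, others 1246 to 1286) and Mcm7 (304 CPM, others 342 to 346). In Hdc-GFPlo, replicate 2 stood low for the summed level of the 51 genes (8042 CPM, others 9541 to 9686). Hdc-GFPlo replicate 3 stood high for Orc6 (105 CPM, others 67.0 to 73.0) and Gins4 (78.0 CPM, others 54.9 to 55.9), and Hdc-GFPlo replicate 4 stood low for Orc2 (80.1 CPM, others 90.4 to 91.6).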

How the results depend on the processing

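In all 20 alternatives, 0 of 51 replication genes were called, as were 0 of 58 other pathway genes and 0 of 28 mitosis genes; the smallest adjusted p of any of the 51 was 0.0733 (Rrm2, without Hdc-GFPlo replicate 2). The count over all genes, 126, was 224 with the replicate block, 275 with a covariate separating replicates 1 and 2 from 3 and 4, 404 with DESeq2, 278 with voom, 258 with the GC and length trend removed and 81 without replicate 2 of both fractions, and 52 to 146 with 1 library left out (52 without Hdc-GFPlo replicate 1, 68 without Hdc-GFPhi replicate 3). The cause was not tested. Of those 126 calls 74.6% were lower in Hdc-GFPhi, against 62.5% with the replicate block, 59.7% with DESeq2, 64.4% with voom and 61.6% with the trend removed. Estimates changed sign for Mcm6 (-0.0032 with voom; -0.014, without Hdc-GFPlo replicate 2, to 0.099 with 1 library left out) and Rpa3 (0.028 with the trend removed; -0.48 to 0.068, without Hdc-GFPlo replicate 3, with 1 library left out). With 1 library left out Gins1 ran from -0.36 to 0.0041 and Pcna from -0.26 to 0.027, both highest without Hdc-GFPlo replicate 3. Same-numbered libraries correlated at 0.26, 0.35, 0.08 and 0.10 in their deviations from the fraction means over 13300 genes. Hdc-GFPhi replicate 3 was closer to Hdc-GFPlo replicate 4 (0.21), and Hdc-GFPhi replicate 4 to Hdc-GFPlo replicate 3 (0.32). For replicates 1 and 2 the same-numbered library was the closest over these genes, and for replicates 3 and 4 it was not. The numbers are therefore not taken to pair the libraries. Deviations shared between the fractions are not modelled in the main test. With the same-number replicate block 0 of 51 were called, and the adjusted p of Rrm2 was 0.0803 by edgeR. A block by the closest libraries was not fitted, so such a pairing was not tested. With 4 libraries a fraction, differences well under 2-fold can be missed.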
